A study of Mus musculus with 5 samples.

Results

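The sites described here are the places in introns of protein-coding genes where both SOX11 and SOX4 were detected on chromatin of mouse keratinocytes, the main cell type of the epidermis. They were chosen by 2 properties of the deposited peak lists. A SOX11 peak had to overlap a SOX4 peak by at least 1 bp, and its centre had to lie in an intron, outside every exon and outside every promoter, which runs from 1 kb before a transcription start to 100 bp past it. This gave 846 shared intronic sites among 21270 SOX11 peaks and 2669 SOX4 peaks. Of all 2522 shared sites they made up 33.5%, beside 571 shared promoter sites, 84 shared exonic sites and 1021 shared intergenic sites. Another 6258 SOX11 peaks lay in introns and overlapped no SOX4 peak. These are called SOX11-only intronic sites and are the main comparison.

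The cells were primary keratinocytes of mice with the genotype Krt14-Cre;Sox11fl/fl;Sox4fl/fl, isolated from newborns and labelled as mixed 129SvEx:C57BL/6, with a Krt14-Cre parent of FVB/N stock per the study's methods. Both endogenous genes were therefore deleted in every group wherever the keratin 14 promoter drove Cre. A lentivirus put back 1 of the factors with a FLAG tag under doxycycline control, and FLAG was precipitated after 24 h of doxycycline in 2 SOX11-FLAG and 2 SOX4-FLAG samples. One control sample of the same genotype, titled Input with IgG as its antibody, has no peak list here. The peaks therefore show where an induced, tagged factor bound in cells lacking its native copy. Each list joined both replicates and gives positions only, with no height, p-value or read count, so depth and the spread between replicates are unknown and the labelled cell type could not be checked against markers. Every p-value below comes from a two-sided Fisher's exact test on sites of these 2 lists and says nothing of the spread between samples.

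SOX11 and SOX4 belong to the SOXC group of transcription factors, which carry nearly the same HMG box, the domain that sits in the minor groove of DNA and bends it. HMG boxes of SOX proteins recognise short sequences with a CTTTGT or CATTGT core. SOXC factors are known for their roles in embryonic progenitor cells and developing neurons, and introns, above all first introns, are common places for enhancers.

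The first sequences are examples of such sites. Each is written 5′ to 3′ on the + strand of mm9, and capitals mark a SOX core (CTTTGT or CATTGT on either strand) or an AP-1 core (TGAGTCA or TGACTCA). The windows hold the SOX core nearest the peak centre in 8 of the 10 sites with such a core that stand earliest in the SOX4 list, the others being in Epc1 and Celf4. The Garnl3 core lies toward the end of its peak (chr2:32873621-32873878), and another element, described below, lies 6 bp from the centre of that peak. The last entry is a whole site, the earliest with both cores.
Garnl3 (chr2:32873834-32873873): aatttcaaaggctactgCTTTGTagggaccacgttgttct
Lfng (chr5:141087281-141087320): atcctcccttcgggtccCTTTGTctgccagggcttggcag
Bcl2l1 (chr2:152646244-152646283): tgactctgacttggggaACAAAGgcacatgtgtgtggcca
Ano3 (chr2:110550488-110550527): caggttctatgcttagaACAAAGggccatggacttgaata
Unc5a (chr13:55072365-55072404): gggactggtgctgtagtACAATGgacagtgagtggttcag
Casq2 (chr3:101939570-101939609): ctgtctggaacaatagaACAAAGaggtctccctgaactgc
Src (chr2:157283295-157283334): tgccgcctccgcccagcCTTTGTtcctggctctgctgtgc
Ctnnd1 (chr2:84466672-84466711): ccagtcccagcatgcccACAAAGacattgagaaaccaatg
Src, whole site (chr2:157283194-157283451): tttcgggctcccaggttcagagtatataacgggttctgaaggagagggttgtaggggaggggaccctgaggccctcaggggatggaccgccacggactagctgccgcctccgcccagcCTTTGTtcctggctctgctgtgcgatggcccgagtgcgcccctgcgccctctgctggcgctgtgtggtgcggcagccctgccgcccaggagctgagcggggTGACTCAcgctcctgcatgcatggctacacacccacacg

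The overlap that chose the sites also limits how far apart their centres can lie, so the distances are a description. The median distance between a SOX11 and a SOX4 centre was 24 bp, and 73.9% of the 846 pairs of centres lay at most 50 bp apart. In 575 sites the whole SOX11 peak, 258 bp wide in nearly all cases, lay inside the SOX4 peak, 340 bp wide. At the edge of the rule, the smallest overlap was 28 bp and 4 sites overlapped by less than 50 bp, while 6 SOX11-only intronic sites had a SOX4 peak within 100 bp, the nearest at 35 bp. The site nearest to a transcription start was 109 bp from it, just past the promoter limit, and 151 of the 846 sites lay within 1 kb of the start of their host. The entries of both lists are not in genomic order, and what orders them is not stated. Shared intronic sites stood early in the SOX11 list, with a median position of 1971 and 76.4% among its first 5000 positions. Other shared sites did so too, with medians of 1511 in promoters and 2156 between genes. The SOX11-only intronic sites had a median position of 11432, with 18.2% among those positions.

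The 846 sites lay in 751 host genes. Background is 3.85%, the share of the 19522 protein-coding genes with an intron that held such a site. A host was long as a rule. The introns of its main transcript, the one with the longest coding sequence, summed to a median of 65.5 kb against 15.7 kb over all genes with an intron. Of the 4381 genes with 30 to 100 kb of intron, 6.44% (95% Wilson interval 5.75 to 7.20) were hosts, and of the 2060 genes with at least 100 kb, 13.0% (11.6 to 14.5) were. Of the 6340 genes with 1 to 10 kb, 0.82% were. Sites per Mb of intron ran the other way, from 1.71 in the 1 to 10 kb genes to 0.672 in genes with at least 100 kb. Of the 751 hosts 407 (54.2%) also held a SOX11-only intronic site, against 3715 (19.0%) of all genes with an intron. Among all genes that share rose with intron length as well. It was 4.50% at 1 to 10 kb, 33.3% at 30 to 100 kb and 52.8% at 100 kb or more. A shared promoter site was nearest to the start of 20 hosts (2.66%), against 2.83% of the other genes.

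In 85 hosts (11.3%, 9.25 to 13.8) there were 2 or more shared sites, and 14 hosts had 3 or more. Together the 85 genes held 197 of the 846 sites. Their introns summed to a median of 162 kb, against 60.2 kb in the 666 hosts of 1 site. Neighbouring sites of 1 gene were mostly far apart: over 112 pairs the median distance was 42.5 kb, and 6 pairs lay within 5 kb. The closest, named after their values were seen, were 0.787 kb apart in the prostaglandin E synthase gene Ptges, 0.921 kb in the kinase gene Cdkl3 and 2.20 kb in the Eph receptor gene Epha4. In 48 pairs both sites shared an intron of the main transcript, in another 48 they did not, and 16 pairs could not be numbered. Every pair of Gm20388 counted as sharing an intron and every pair of Fgfr2 as not numbered. Most sites of both genes rest on transcripts that run across neighbouring genes, described next, and their distances enter the median.

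Of the 14 hosts with 3 or more sites, 12 are described, with ties at 3 taken in the order of the SOX4 list, which leaves out Rreb1 and Rbm20. Gm20388 is listed with 10 and Fgfr2, a receptor for fibroblast growth factors, with 6, but 7 of the Gm20388 sites and 5 of the Fgfr2 sites lie only in introns of transcripts that the annotation tags as read-through, which run across many neighbouring genes. The first intron of Gm20388 alone spans 4384 kb. The other Gm20388 sites also lie in introns of 1190005I06Rik, Ankrd11 and Galnt2, and the other Fgfr2 site in an intron of Ctbp2. In all, 14 of the 846 sites rest on read-through transcripts alone. With those transcripts left out, 83 hosts had 2 or more sites. Apart from Gm20388 and Fgfr2, Rbms3, which encodes an RNA-binding protein, held 5 sites, of which 4 lay in its second intron of 242 kb. Exoc6b, an exocyst subunit, held 4. The remaining 8 held 3 each. Lrig1 encodes an inhibitor of EGF receptor signalling that also marks stem cells of the hair follicle, and its 3 sites fell within 18.4 kb of each other in introns 3 and 4. Tead1, the DNA-binding partner of YAP in the Hippo pathway, had sites in introns 1 and 2, and a site of the neuron navigator gene Nav2 lay in intron 36 of 37. Casq2, which encodes a calcium-binding protein, held sites in introns 1, 2 and 9. All 3 sites of Xkr6 were in a first intron of 191 kb. Those of Pcbp3, another RNA-binding protein gene, lay in introns 1 and 2. The sites of Ahnak and Frmd4b could not be numbered, because they lay outside the main transcript in introns of other transcripts.

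**Figure D1:**
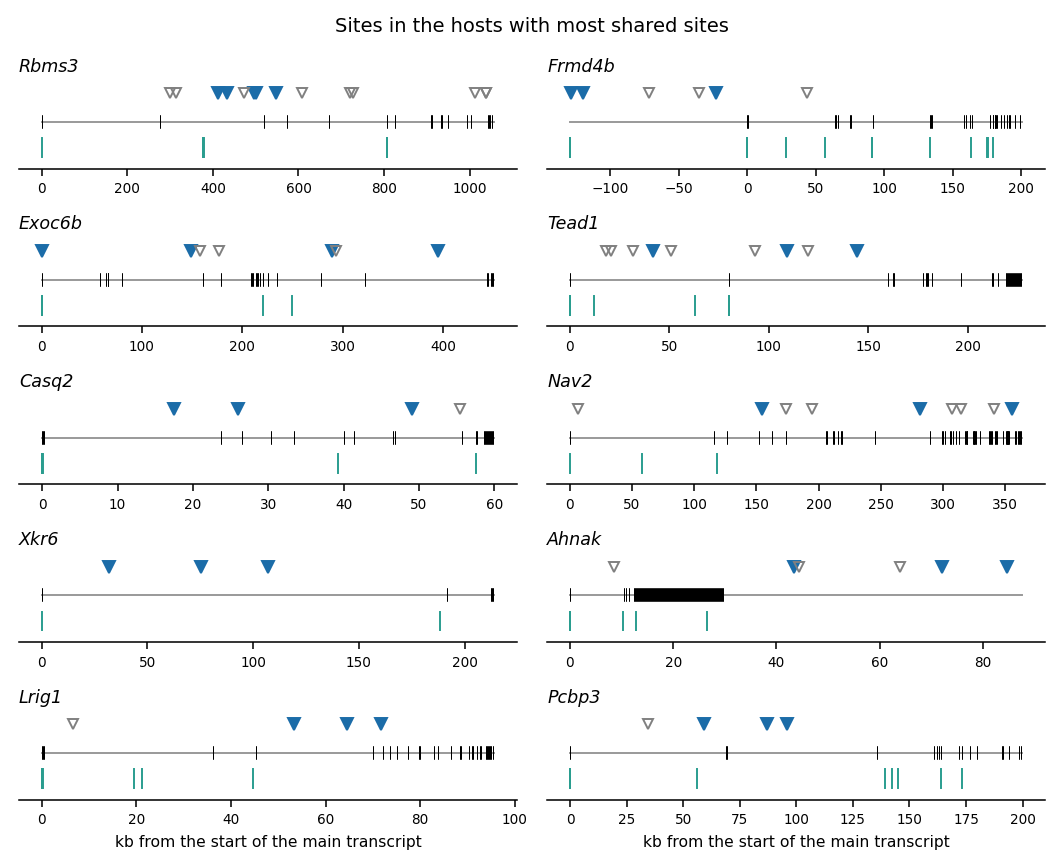
Positions of shared intronic sites (filled triangles) and SOX11-only intronic sites (open triangles) in the hosts with most shared sites, in kb from the start of the main transcript and in its direction. The grey line is the annotated span of the gene, black blocks are exons of the main transcript and green ticks are annotated starts; the scale differs between genes, and Gm20388 and Fgfr2 are left out because most of their sites rest on read-through transcripts. Of the 10 genes drawn, Rbms3 has most filled triangles, 5, and Ahnak and Frmd4b have theirs beyond the exons of the main transcript.

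Introns were numbered in the main transcript, which placed 794 of the 846 sites. First introns held 358 of them, or 45.1% (41.7 to 48.6), the second introns 15.5% and introns 6 and later 22%. First introns make up 26.3% of the intron bases of all protein-coding genes, and averaged over the sites, 33.1% of the intron bases of the host. Within first introns the sites leaned to the 5′ end: 42.5% (37.4 to 47.6) fell in the first of 5 equal parts of the intron and 11.5% (8.56 to 15.2) in the last. In later introns the 5 parts held between 17.4% and 22.5% each. Over all 846 sites the median distance to the nearest start of the host was 11.6 kb, with quartiles of 2.31 and 36.5 kb. For 87.8% of the sites the nearest start of any gene was the host's own.

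**Figure D2:**
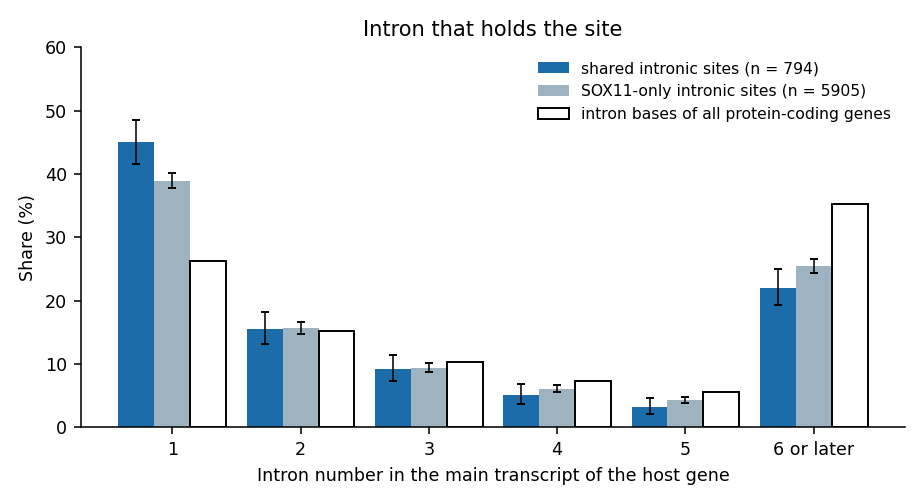
Share of sites by the number of the intron that holds them, for shared intronic and SOX11-only intronic sites, with 95% Wilson intervals, and share of all intron bases of protein-coding genes (open bars). Intron 1 held 45.1% of the shared and 39.0% of the SOX11-only sites but 26.3% of the bases.

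Set against SOX11-only intronic sites, shared sites were more often in a first intron, 45.1% against 39.0% (odds ratio 1.29, Fisher's exact test, adjusted exact p = 0.0031 over 3 measures), and more often within 10 kb of a start of the host, 47.0% against 41.8% (odds ratio 1.24, adjusted exact p = 0.0065). The nearest start belonged to the host in 87.8% and 87.1% (adjusted exact p = 0.62). These differences changed with the settings. With both groups taken from the first 5000 positions of the SOX11 list, first introns held 46.7% of the shared and 49.6% of the SOX11-only sites (adjusted exact p = 0.26), and the order turned for sites within 10 kb of the start, 47.1% against 53.9%, and for the nearest start being the host's, 87.5% against 91.8% (adjusted exact p = 0.0087 for both). With 1 site per host gene, and with promoters widened to 1 kb on each side of a start, no measure passed. Under the wider promoter 35.1% of 650 shared sites and 33.5% of 5231 SOX11-only sites were in first introns. Place in the SOX11 list and sites just past a start moved with these differences, and their part was not tested.

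Most shared intronic sites carried a SOX core, and 115 (13.6%) did not. CTTTGT or CATTGT was found on 1 strand or the other in 731 of 846 sites, 86.4% (83.9 to 88.6), against 32.5% of windows of equal width 2 kb to the right on the + strand and 58.5% of all SOX11 peaks. The share was 63.6% in SOX11-only intronic sites (odds ratio 3.64, Fisher's exact test, adjusted exact p = 7.7e-44 over 30 comparisons). The difference was smaller but still passed among the first 5000 positions of the SOX11 list, 90.2% against 82.0% (odds ratio 2.03, adjusted exact p = 9.0e-06). Shared promoter sites had the core in 77.4% (adjusted exact p = 5.2e-05), a difference lost among those first 5000 positions (odds ratio 1.17, adjusted exact p = 0.60), and shared intergenic sites in 85.4% (odds ratio 1.09, adjusted exact p = 0.57). Several cores in a site were common too: 276 shared sites (32.6%) held 2 or more, against 18.9% of the SOX11-only sites. The largest number was 4. The 5 sites earliest in the SOX4 list with that number lay in Lfng, Ctnnd1, Frmd4b, Marcksl1 and Nfatc2. Lfng encodes a glycosyltransferase that modifies Notch, Ctnnd1 the adherens junction protein p120-catenin, Marcksl1 an actin-binding substrate of protein kinase C, and Nfatc2 a calcium-regulated transcription factor.

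The core lay at the middle of the peak. In sites with a core, the one nearest the centre was a median of 9 bp away, and within 25 bp in 77.4% (74.3 to 80.3); in SOX11-only sites the median was 20 bp and the share 58.3% (56.8 to 59.8). Core density reached 22.9 matches per kb in the central 20 bp of shared sites and 9.95 in SOX11-only sites, and 300 to 500 bp away it was 1.6 and 1.45. CTTTGT made up 82.4% (79.4 to 84.9) of these nearest cores in shared sites and 73.0% (71.6 to 74.3) in SOX11-only sites, the rest being CATTGT. The bases after the core differed as well. T followed the core in 55.8% of shared and 37.9% of SOX11-only sites, and C came next in 55.4% and 37.8%. As a whole word, CTTTGTTC stood in 28.8% of shared sites and 9.09% of SOX11-only sites, and of all words of 8 letters it had the widest gap between the classes. It was singled out after the values were seen, as was the strand of the core. The distances, densities, bases and words above were compared with SOX11-only intronic sites alone, not with other shared sites. They were not repeated among the first 5000 positions of the SOX11 list, where 76.4% of shared and 18.2% of SOX11-only intronic sites stood. Read along the host gene, the nearest core was on the coding strand in 472 of 731 sites, 64.6% (61.0 to 68.0), but the shifted windows gave 165 of 275 (54.1 to 65.6%) and the SOX11-only sites 60.2%.

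**Figure D3:**
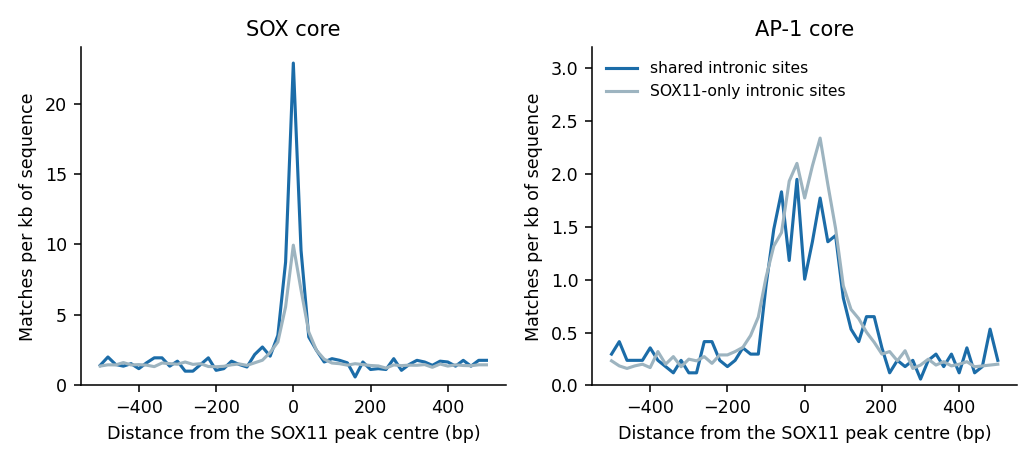
Matches per kb of sequence to the SOX core (left) and the AP-1 core (right) by distance from the SOX11 peak centre, in bins of 20 bp, for 846 shared intronic and 6258 SOX11-only intronic sites; the vertical scales differ. The SOX core peaks at the centre, at 22.9 per kb in shared and 9.95 in SOX11-only sites, while the AP-1 core forms a wider hump.

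AP-1, the dimer of FOS and JUN proteins that drives many keratinocyte enhancers, was the second motif of these sites. Its core was present in 232 of 846 sites, 27.4% (24.5 to 30.5), against 4.37% of the shifted windows and 28.5% of all SOX11 peaks. It was more frequent than in shared promoter sites, 5.08% (odds ratio 7.06, adjusted exact p = 5.6e-29), and less frequent than in SOX11-only intronic sites, 34% (odds ratio 0.73, adjusted exact p = 0.00034), and shared intergenic sites, 35.3% (odds ratio 0.69, adjusted exact p = 0.00074). The difference from intergenic sites was lost with promoters of 1 kb on each side of a start (odds ratio 0.87, adjusted exact p = 0.31). The difference from SOX11-only sites was not found among the first 5000 positions of the SOX11 list, 28.5% against 29.3% (adjusted exact p = 0.86). The core lay farther from the centre than the SOX core, at a median of 49.5 bp.

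The SOX and AP-1 cores occurred together in 208 sites (24.6%), where 23.7% would have both if the cores were independent (odds ratio 1.51, Fisher's exact test, p = 0.093). In these 208 sites the middles of the nearest pair were a median of 45 bp apart, and 36 sites had them within 20 bp. Only 24 sites (2.84%) held the AP-1 core alone, the earliest of them in the SOX4 list being in Smyd3, a lysine methyltransferase gene. Its whole site stands first below. The 5 sites with the closest pair show the cores sharing or almost sharing bases, in Abcc4, a drug transporter gene, the enolase gene Eno1, Ltbp1, which encodes a binding protein of latent TGF-beta, the kinase gene Tnik and Bcas3.
Smyd3, whole site (chr1:180972243-180972500): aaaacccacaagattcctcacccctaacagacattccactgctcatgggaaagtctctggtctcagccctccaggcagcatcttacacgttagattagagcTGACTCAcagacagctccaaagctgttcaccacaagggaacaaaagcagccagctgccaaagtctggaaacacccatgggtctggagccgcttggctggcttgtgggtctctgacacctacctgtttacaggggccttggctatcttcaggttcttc
Abcc4 (chr14:118965575-118965615): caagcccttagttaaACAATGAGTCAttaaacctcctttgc
Eno1 (chr4:149614159-149614199): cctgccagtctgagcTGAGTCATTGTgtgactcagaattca
Ltbp1 (chr17:75599152-75599193): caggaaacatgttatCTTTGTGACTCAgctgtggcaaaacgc
Tnik (chr3:28390287-28390329): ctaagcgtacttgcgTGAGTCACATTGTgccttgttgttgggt
Bcas3 (chr11:85181467-85181511): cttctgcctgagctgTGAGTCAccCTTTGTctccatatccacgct
In the Abcc4 and Eno1 windows CATTGT and the AP-1 core overlap by 2 bases, and in the Ltbp1 window CTTTGT and the AP-1 core share 1. Further core copies of a window are left in lower case.

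Motif content was also compared between places within the shared intronic sites. In first introns 83.5% of 358 sites had a SOX core and 19.0% an AP-1 core; in later introns 88.5% of 436 and 34.9% did (Fisher's exact test, adjusted exact p = 0.049 and 1.4e-06). The distance from the start moved with this. Within 1 kb of the host's start 5.30% of 151 sites had the AP-1 core and 75.5% the SOX core, with a median GC content of 66.3%. At 1 to 10 kb 25.9% had the AP-1 core, at 10 to 50 kb 34.6% and beyond 50 kb 38.0%, with GC medians of 51.2%, 48.8% and 47.7%, and the SOX core stood between 87.3% and 89.3%. Among sites over 10 kb from the start, the AP-1 core was present in 32.0% of 125 first-intron sites and 38.0% of 295 later ones (adjusted exact p = 0.40) and the SOX core in 86.4% and 89.5% (adjusted exact p = 0.40). The SOX core difference was also lost with the first intron of any transcript (adjusted exact p = 0.16), and both differences were lost with promoters of 1 kb on each side of a start (adjusted exact p = 0.80 for the SOX core and 0.071 for the AP-1 core). By place in the SOX4 list, the first and the last 282 sites had the SOX core in 85.8% and 85.1% (adjusted exact p = 0.90) and the AP-1 core in 22.3% and 33.7% (odds ratio 0.57, adjusted exact p = 0.0072). Along the SOX11 list, with no test run, the SOX core was in 93.6% (90.1 to 95.9) of the first and 77.3% (72.1 to 81.8) of the last 282 sites, and the AP-1 core in 28.4% (23.4 to 33.9) and 25.2% (20.5 to 30.6).

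The other 8 motifs set shared intronic sites apart from promoters more than from other distal sites. Base composition differed as well. Median GC content was 50.8% in shared intronic and 64.7% in shared promoter sites, with means of 6.89 and 21.4 CpG per site. Its part in the motif differences was not tested. GGGCGG, the SP/KLF box of many promoters, was in 18.7% of shared intronic and 63.7% of shared promoter sites (adjusted exact p = 4.6e-66), and CCGGAA of ETS factors in 6.62% and 25% (adjusted exact p = 3.1e-21). CCGGTT of the epidermal GRHL factors was in 4.26% and 11% (adjusted exact p = 5.6e-06). GGAATG of TEAD factors was in 22.8% and 11.2% (adjusted exact p = 7.7e-08), TGTGGT of RUNX factors in 20.2% and 9.11% (adjusted exact p = 4.8e-08), and TTGCNNAA of C/EBP in 12.4% and 6.13% (adjusted exact p = 0.00023). TGACNNNGC of NRF2, which an AP-1 core followed by GC also matches, was in 14.2% and 9.81% (adjusted exact p = 0.034), and the p63 element, 2 CATG words 6 bases apart, in 1.77% and 0.35% (adjusted exact p = 0.041). The last 2 calls were lost among the first 5000 positions of the SOX11 list (adjusted exact p = 0.19 for both). Against SOX11-only intronic sites 3 of these 8 passed: GGGCGG, 18.7% against 12.8% (adjusted exact p = 2.3e-05), GGAATG, 22.8% against 26.9% (adjusted exact p = 0.024), and TGTGGT, 20.2% against 23.6% (adjusted exact p = 0.048). None of the 3 passed among the first 5000 positions of the SOX11 list. Against shared intergenic sites GGGCGG alone did, 18.7% against 11.7% (adjusted exact p = 8.0e-05), and this turned with promoters of 1 kb on each side of a start (odds ratio 0.90). In shifted windows of the shared intronic sites GGAATG was at 14.8%, TGTGGT at 18.1% and TTGCNNAA at 11.9%, and over all SOX11 peaks these stood at 22.8%, 20.4% and 10.7%. Over all SOX11 peaks GGGCGG was at 24.7%, CCGGAA at 10.7%, CCGGTT at 5.04%, TGACNNNGC at 15% and the p63 element at 1.5%. A match gives letters in a window and not a bound factor.

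**Figure D4:**
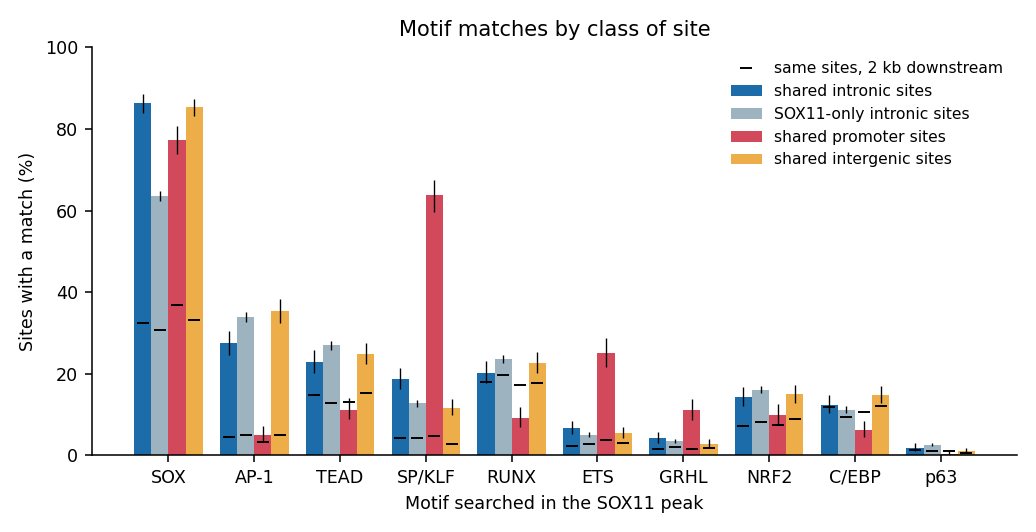
Share of sites with a match to each motif in the SOX11 peak, for 846 shared intronic, 6258 SOX11-only intronic, 571 shared promoter and 1021 shared intergenic sites, with 95% Wilson intervals; black dashes give the same share in windows shifted by 2 kb. The SOX core stands at 86.4% in shared intronic sites, and the SP/KLF box at 63.7% in shared promoter sites.

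A second kind of site stood at the head of the SOX4 list. Among the 12 shared intronic sites earliest in that list, 5 had no SOX core: those in Npas4, Erich1, Phf21b, Rtbdn and Trappc9. The other 7 lay in Garnl3, Lfng, Epc1, Bcl2l1, Celf4, Ano3 and Unc5a, genes that include the survival factor Bcl-xL (Bcl2l1) and a netrin receptor (Unc5a). None of the 12 had an AP-1 core. Npas4, an activity-dependent transcription factor of neurons, holds the first of all, shown here whole because it carries another element. Its capitals mark matches to the RE1 element, AGCACC and GGACAG with 2 bases between on either strand and at most 1 mismatch, to which the repressor REST is known to bind at neuronal genes. The 4 windows below it hold the earliest RE1 matches in sites without a SOX core, written like those above, and the search was made after the first of these sequences had been seen.
Npas4, whole site (chr19:4989043-4989300): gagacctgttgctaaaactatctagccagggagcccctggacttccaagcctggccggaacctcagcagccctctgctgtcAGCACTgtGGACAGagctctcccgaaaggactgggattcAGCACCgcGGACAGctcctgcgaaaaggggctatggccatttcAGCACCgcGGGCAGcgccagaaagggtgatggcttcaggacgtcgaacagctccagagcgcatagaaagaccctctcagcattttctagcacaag
Npas4 (chr19:4989155-4989184): tgggattcAGCACCgcGGACAGctcctgcg
Erich1 (chr8:14072722-14072751): ctggggtcAGCACCaaGGACAGcaccagaa
Phf21b (chr15:84660021-84660050): atctggtgCTGTCCgtGGTGCTggcctcat
Rtbdn (chr8:87471216-87471245): cggaaaagCTGTCCaaGGTGCTggcctcgt

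RE1 matches were found in 29 of the 846 shared intronic sites, 3.43% (2.40 to 4.88), and in 3 shifted windows. The share was 0.59% (0.43 to 0.81) in SOX11-only intronic sites, 1.58% in shared promoter sites, 2.35% in shared intergenic sites and 0.71% over all 21270 SOX11 peaks. They were bunched at the start of the SOX4 list: 17 of the first 100 shared intronic sites held one against 12 of the other 746. Of the 19 sites among the first 100 that had no SOX core, 13 held an RE1 match. The match lay at the peak centre, a median of 9 bp away and within 25 bp in 23 of the 29. Of the 29 sites, 6 also had a SOX core, the Garnl3 and Celf4 sites among them, and 0 an AP-1 core. Their hosts, named after the matches were seen and not tested as a group, include Snap25 and Nsf, parts of the membrane fusion machinery, Syt7, a calcium sensor of exocytosis, Chgb, a granin, and Ptprn, together with the scaffold genes Dlgap3 and Dlgap4, the adhesion gene L1cam and the RNA-binding protein genes Celf4 and Rbfox3. The other hosts included Vrk3, Art3, Crhr2, Sned1, Efcab6, Myo18b, Erich1, Rtbdn and Trappc9. Both Camta1, a calmodulin-binding transcription activator, and Xkr6 held 2. These sites stood late in the SOX11 list for their place in the SOX4 list. Among the first 100, the sites with a match had a median SOX11 position of 3318 and the others one of 160. No test was made, as the element was chosen from these sequences.

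**Figure D5:**
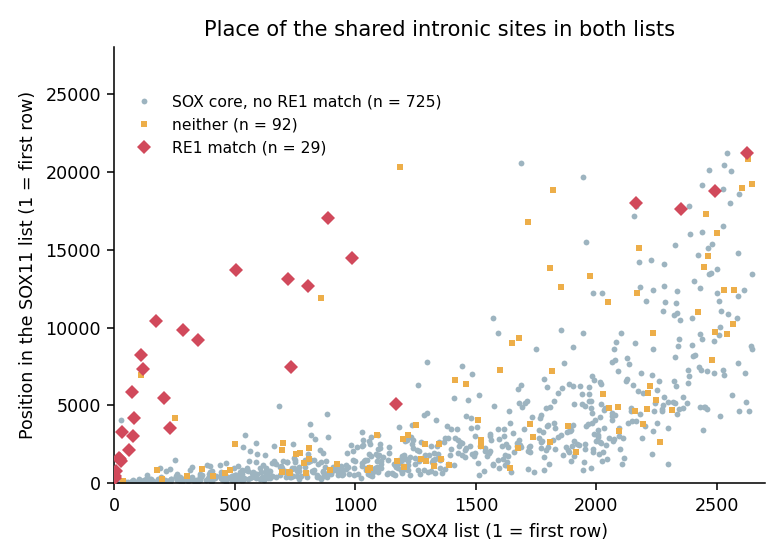
Position of each of the 846 shared intronic sites in the SOX4 list and in the SOX11 list, by content of the SOX11 peak: a SOX core without an RE1 match (725 sites), an RE1 match (29) or neither (92). Most sites form a band along the bottom in which a late SOX11 position goes with a late SOX4 position, and RE1 matches early in the SOX4 list lie above it.

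Hosts are given next by gene lists, which do not hold every gene of a pathway or family. The share of listed genes holding a shared intronic site is to be read beside the 3.85% of all genes and the shares by intron length. Those were 0.82% at 1 to 10 kb, 2.61% at 10 to 30 kb, 6.44% at 30 to 100 kb and 13.0% at 100 kb or more. Among actin filament genes and regulators, with a median of 71.4 kb of intron, 11 of 40 were hosts. The formin gene Diap1, Pdlim5, which encodes a scaffold on actin filaments, and the myosin gene Myo1e held 2 sites each, and Marcksl1 and Actn4, an actin cross-linker, held 1 each. Chromatin regulators (8 of 28, median 72.9 kb) included the demethylase gene Kdm2a, the polycomb methyltransferase gene Ezh2, 0.515 kb past a start, Tet3 and Arid1b. Guidance receptors and ligands (8 of 28, median 95.3 kb) included Epha4 and the plexin gene Plxna1 with 2 sites each, the semaphorin genes Sema4b and Sema3f, and the netrin receptor gene Unc5b. SOX11-only intronic sites were frequent in these lists too. They lay in 65% of the actin genes, 50% of the chromatin regulators and 64.3% of the guidance genes. Among all genes the share was 33.3% at 30 to 100 kb of intron and 52.8% at 100 kb or more.

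Transcription factors of keratinocytes and the embryo gave 9 hosts of 39, with a median of 45.2 kb of intron. Of the listed factor genes 61.5% held a SOX11-only intronic site. Rxra, a retinoid receptor gene, held 2 sites in its first intron, at positions 61 and 156 of the SOX11 list, Camta1 and Foxp1 also held 2 each, and Runx1 and Trp63 held 1 each. The Trp63 site, in the gene of the epidermal regulator p63, lay in intron 3, 21.6 kb from a start, and the Runx1 site in intron 6 of 7 with 2 SOX cores and 1 AP-1 core. Of 27 junction genes 4 were hosts: Ctnnd1 with 2 first-intron sites, at positions 7 and 62 of the SOX11 list, the adherens junction gene Cdh1 (E-cadherin), Mllt4 (afadin) and the polarity gene Pard3. The host Ocln, a tight junction gene, was not on that list. Integrin and focal adhesion genes gave 4 of 26: Nedd9 with 2 sites, Src, Itga5 and Vcl. Basement membrane and matrix genes gave 3 of 25 (Fras1, Col18a1 and Col4a2), Hippo genes 3 of 23 (Tead1, Amotl1 and Stk3), and AP-1 and stress factors 3 of 18 (Bach2 with 2 sites, Nfe2l2 and Bach1). Median intron length was 40.7 kb for junction genes, 55.6 kb for integrin and focal adhesion genes and 59.3 kb for matrix genes. For Hippo genes it was 58.4 kb and for AP-1 and stress factors 9.48 kb.

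Notch genes gave 2 of 20 (Lfng and Maml3, a coactivator gene), Wnt genes 2 of 25 (the coreceptor gene Lrp5 and Tle1) and TGF-beta and BMP genes 2 of 26. The latter were Smad3, with 2 sites in its first intron, and Tgfa, which in fact encodes an EGF receptor ligand. Hosts that were not on these lists include Tgfb3, a TGF-beta ligand gene, and Bmpr1b, a BMP receptor gene. They also include the Wnt regulator genes Znrf3, Vangl1 and Dkk3. The intervals of the Notch, Wnt, and TGF-beta and BMP shares overlap those of the other lists, and no test compared lists. None of the 34 genes listed for the EGF receptor and MAPK pathway was a host (0 to 10.2%). Their median intron length was 18.3 kb, and 29.4% of them held a SOX11-only intronic site. This zero holds for the listed genes only. Tgfa was not among them, nor were the hosts Nrg2, an ERBB ligand gene, the RAF kinase gene Araf and the scaffold gene Ksr2. The Notch, Wnt, and TGF-beta and BMP lists had medians of 30.4, 40.9 and 62.2 kb. Intron length differed between the lists as well, and its part was not tested.

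Of 37 genes that the study itself singled out, with a median of 26.9 kb of intron, 7 were hosts. The study chose them by expression in other samples and by binding in these cells, so the list is no independent evidence. The Lfng site was the first of the whole SOX11 list, in intron 1 of 7, 4.0 kb from the start, with 4 SOX cores. The Nfe2l2 site, in the gene of the stress-responsive factor NRF2, had position 19 in the SOX11 list, lay 21.4 kb from the gene's start in intron 1 and held 3 SOX cores. The start of Hnrnpa3 was nearer to it, at 20.6 kb. The Smad3 sites, 10.02 and 0.815 kb from a start, had 1 SOX core each, and the farther one an AP-1 core as well. In freshly isolated epidermal cells with induced SOX11, the study's ChIP-qPCR found enrichment at Lfng and Smad3. It found none at a region the study names Nf2l2, and the study's main text does not say whether the regions assayed were these sites. Marcksl1, with a single intron of 0.8 kb, held a site 0.536 kb from its start with 4 SOX cores and a GC content of 79.1%. In the study's reporter assay SOX11 activated a cloned Marcksl1 region with a peak in both orientations. SOX4 activated only 1 of the cloned regions. The main text does not name that region or say whether the Marcksl1 region was this site. The Slc4a7 site, in a bicarbonate transporter gene, was 0.239 kb past a start, and that of Slco3a1, an organic anion transporter gene, 46.5 kb. Camta1 differed from these: its sites had positions 231 and 986 in the SOX4 list but 3544 and 14500 in the SOX11 list, and both held RE1 matches. The study lists Marcksl1 and Slc4a7 as direct targets that the factors regulate positively, and Slco3a1 and Camta1 as ones they regulate negatively.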

How the data were processed

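Per the labels and the study's methods, ChIP-seq reads were mapped by the authors to mm9 (Bowtie2) and cleared of duplicates (Picard). They called factor-style peaks with HOMER and subtracted blacklisted regions with bedtools, joining both replicates of a factor in 1 list. Versions, thresholds and the role of the control are not given in the sources used here. The deposited lists hold chromosome, start and end only.

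Peaks were placed by their centres in GENCODE M1 genes of the same build (NCBIM37) with Python 3.11.15, over all transcripts of 22380 protein-coding genes. A site counted for every gene whose intron held it (16 sites had 2 or more). Introns were numbered and measured in the transcript with the longest coding sequence. For distances and intron numbers the host was the shortest gene. Motifs were searched in the SOX11 peak on both strands. Shares carry 95% Wilson intervals, which cover counting error only. Fisher's exact tests (scipy 1.17.1) were adjusted by Benjamini-Hochberg within families of 3, 30, 2 and 2, at a threshold of 0.05. Sites of 1 gene are not independent. Scripts were tested on simulated data. The members, motifs and 15 gene lists were chosen with earlier results of these data known. The result of 1 gene list and 1 host of another are not reported here. RefSeq synonyms (GRCm38.p6) matched 8 older symbols.

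The text names the 12 hosts with most sites, the 12 sites earliest in the SOX4 list, up to 5 hosts per gene list, hosts among genes the study singled out, the 5 sites with most SOX cores and the 5 with the closest SOX and AP-1 cores, plus items said to be chosen after their values were seen.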

Additional observations from a re-analysis of the deposited data

How the results depend on the processing

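Of 269 values under alternative settings, 224 kept their direction and their side of the threshold, or their size, which for a count means within 1.5 times and for a share within its 95% interval. The number of shared intronic sites was 695 to 872 over its alternatives, 695 with promoters of 1 kb on each side. That number, the number of hosts with 2 or more sites, the SOX core against SOX11-only intronic sites and the AP-1 core against promoters did so under every alternative run, and so did the co-occurrence of both cores and their share by place in the SOX4 list. Values below are odds ratios with adjusted p from Fisher's exact test. The share of sites in the first intron was 35.1% with promoters of 1 kb on each side, 51.9% for the first intron of any transcript and 41.4% for that of every transcript. The 3 placement measures changed most. From the first 5000 SOX11 positions, the odds ratios turned to 0.89 for the first intron, 0.76 for within 10 kb (exact p = 0.0087) and 0.63 for the nearest start (exact p = 0.0087). With 1 site per host gene 0 of 3 passed, at 1.15 (exact p = 0.34) and 0.94 (exact p = 0.67) for the first 2. With the wider promoter 0 of 3 passed, at 1.07, 1.05 and 0.97 (exact p = 0.82 for each). From the first 5000 positions 10 of the 30 motif comparisons passed against 17, the SOX core stood at 1.17 (exact p = 0.60) against promoters and 0.98 (exact p = 0.97) against intergenic sites, and the AP-1 core at 0.96 (exact p = 0.86) against SOX11-only sites. With the wider promoter the AP-1 core stood at 0.87 (exact p = 0.31) against intergenic sites, and TEAD, SP/KLF, ETS and NRF2 turned to 1.02, 0.90, 0.83 and 1.03 there. C/EBP against intergenic sites turned to 1.17 within 50 bp of the centre and 1.02 among the first 5000 positions. First against later introns, the SOX core fell short with 0.74 (exact p = 0.16) for the first intron of any transcript, 0.93 (exact p = 0.80) with the wider promoter and 0.75 (exact p = 0.40) beyond 10 kb of the start, and the AP-1 core with 0.68 (exact p = 0.071) and 0.77 (exact p = 0.40) under the last 2. Of the other motifs, 15 comparisons lost their call and 1 gained one. The p63 element against promoters gave no finite odds ratio within 50 bp of the centre. The causes were not tested. The wider promoter in the tests, the limit beyond 10 kb, the removal of read-through transcripts and the use of protein-coding transcripts alone were chosen after seeing the data. Ignoring repeats could not be run because the genome used is not soft-masked. No paired analysis was possible because both replicates of a factor are joined in 1 list, so no replicate could be left out either. With no heights or counts in the lists, depth cannot be weighed, and an absent SOX4 peak cannot be told apart from one under the authors' threshold.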
